A study of Mus musculus with 16 samples.

Results

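Transcript levels of 10 genes that serve as readouts of the transcriptional regulators YAP and SRF were described across an induction of the kinase ERK in mouse cells. The members were Cyr61 (Ccn1 in newer annotation), Ctgf (Ccn2), Amotl2, Lats2, Rhob, Vcl, Srf, Actg1, Tagln and Myl9. They were chosen by symbol, as the rows of the count table whose gene identifiers carry these names. All 10 were found among the 52636 rows. The low-count filter, which left 12742 genes for testing, kept 8 of the 10; Tagln and Myl9 were too low to test.

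The cells, of the line CRAFR26 and the type labelled RSC, had been differentiated from mouse embryonic stem cells carrying a c-RAF kinase construct that 4-hydroxytamoxifen switches on, with ERK activated downstream. Before the experiment every group had spent 48 h with 250 nM of the FGF receptor inhibitor PD17 (PD173074), which took the place of the 1 µM MEK inhibitor PD03 (PD0325901) of the usual N2B27 medium with the Wnt secretion inhibitor IWP2 at 2 µM and LIF. Uninduced cells made up the group 0h. The groups 2h and 4h had received 250 nM 4-hydroxytamoxifen for that many hours. Cells of the group rev had been induced for 4 h and then kept for 2 h with a MEK inhibitor, whose dose was not stated. Each group held 4 libraries of total RNA depleted of ribosomal RNA, 2 from clone 4 and 2 from clone 8. The construct and the pretreatment were thus shared by all 16 libraries. Cells given tamoxifen for 6 h without the MEK inhibitor were not analysed here, so in rev the effect of the inhibitor and that of 2 h of further culture cannot be told apart. No label says that the libraries of 1 clone and group came from separate cultures, so the p-values measure the spread between these samples, which may in part be technical.

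YAP and its paralog TAZ are coactivators that the kinases LATS1 and LATS2 of the Hippo pathway keep out of the nucleus. Once nuclear, they bind TEAD factors and switch on genes such as Cyr61, Ctgf and Amotl2, and also Lats2, whose product acts back on YAP. SRF is a DNA-binding factor with alternative partners: the actin-sensing MRTF proteins direct it to cytoskeletal genes, while the ternary complex factors, which ERK phosphorylates, direct it to immediate-early genes. Small GTPases that steer actin link both systems, because actin assembly releases MRTF and favours nuclear YAP.

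Promoter stretches of 5 members that hold a CArG box or a TEAD motif are shown here to locate these elements relative to the gene starts. Promoters were taken from RefSeq (GRCm38.p6), which gave 9 promoters for 8 of the 10 members, Ctgf and Tagln having none in the table used. A CArG box, the element SRF binds, was found within the 250 bases before the start in 4 of the 9 promoters, those of Srf, Actg1, Vcl and Myl9, against 1.47% of all 32851 promoters of the table. The TEAD motif GGAATG, or CATTCC on the other strand, was found in 3 of the 9 (Cyr61, Amotl2 and Vcl) against 12.6% of all. The AP-1 motif TGANTCA was found in 0 of the 9 against 6.75% of all, and the ETS motif CCGGAA, the core that ternary complex factors read, in 1 of the 9 (Srf) against 12% of all; both strands were read for each. The motifs do not overlap one another in these promoters. A match describes the letters and not a bound site, and a window without a match says nothing of the factor. Capitals mark the CArG boxes and TEAD motifs, and each stretch reads 5′ to 3′ on the strand of its gene:
Srf, chr17:46556190-46556269, minus strand: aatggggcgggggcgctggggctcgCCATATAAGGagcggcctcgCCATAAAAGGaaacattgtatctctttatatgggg
Actg1, chr11:120348551-120348610, minus strand: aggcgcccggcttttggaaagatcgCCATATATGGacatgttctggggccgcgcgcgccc
Vcl, chr14:20929148-20929285, plus strand: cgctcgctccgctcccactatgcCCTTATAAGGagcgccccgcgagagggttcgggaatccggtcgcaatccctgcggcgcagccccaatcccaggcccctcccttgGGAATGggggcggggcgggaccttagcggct
Myl9, chr2:156775278-156775337, plus strand: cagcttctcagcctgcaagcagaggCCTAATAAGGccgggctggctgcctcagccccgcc
Cyr61, chr3:145650058-145650113, minus strand: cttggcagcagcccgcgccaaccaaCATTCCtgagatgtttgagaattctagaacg
The Srf promoter held a pair of CArG boxes, 82 to 73 and 62 to 53 bases before its start, with the ETS core further upstream at 122 to 117. In Vcl the CArG box lay 227 to 218 and the TEAD motif 143 to 138 bases before the start, so that 1 promoter carried both elements. These stretches lie outside annotated exons; that of Amotl2 lies within one and is not printed.

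Library totals ran from 4.31 to 10.44 M counts, of which a few ribosomal and other abundant features held 46.7% to 78.9%. The highest share was that of replicate 1 of clone 8 at rev, whose TMM factor was 0.537; the next highest share was 64.9%. Without that library the log2 change of Actg1 at rev against 0h and that of Lats2 at rev against 2h, both given below, were no longer called. Levels are given in CPM, read counts per M counts after TMM scaling, which sets the bulk of genes equal between libraries; 3 counts were worth 0.21 to 0.908 CPM, and such floors cover counting error alone. Pluripotent-cell markers summed to between 878 and 1031 CPM in every library, all 7 being detected. Single markers varied more than this sum. Over the libraries Lin28a ran from 10.8 to 93.3 CPM, Utf1 from 26.4 to 91.2, Dppa5a from 113 to 284 and Otx2 from 4.18 to 15.9. Sox2 ran from 201 to 241 CPM, Pou5f1 from 120 to 175 and Sall4 from 210 to 356. Of 8 feeder-fibroblast markers none passed the filter, S100a4 was at 0 in all libraries and the 8 summed to 0.613 to 3.6 CPM. Summed markers of trophectoderm (5 genes, 6.04 to 26 CPM), primitive endoderm (7 genes, 3.32 to 9.99 CPM) and primitive streak and mesoderm (4 genes, 1.97 to 8.64 CPM) were low. The trophectoderm ranges overlapped between all groups, while the other sums moved with the groups. The streak markers ran from 1.97 to 3.94 CPM at 0h, 5.01 to 7.39 CPM at 2h, 5.53 to 8.64 CPM at 4h and 4.48 to 5.75 CPM at rev, so every induced group lay above 0h. The endoderm markers ran from 4.77 to 5.76 CPM at 0h, 5.71 to 7.19 CPM at 2h, 3.32 to 5.07 CPM at 4h and 6.14 to 9.99 CPM at rev, higher at 2h and rev than at 4h, with rev also clear of 0h. The part of these markers in the results was not tested. In bulk samples fewer cells of a type and less RNA per cell cannot be told apart.

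The YAP-linked members Cyr61, Ctgf, Amotl2 and Lats2 were higher after 2 h of induction and lower at 4h than at 2h. Cyr61 was still above 0h at 4h. Of 13 other tested targets of YAP and TEAD, 3 rose at 2h, and from 2h to 4h 1 fell, with a median of 0.05. Vcl, Srf and Actg1 were not called as lower at 4h than at 2h, although Actg1 fell in clone 8 alone (-0.62, adjusted p = 0.000354, edgeR). Cyr61, Lats2, Ctgf, Actg1, Amotl2 and Vcl rose at 2h against 0h, by 7.38-fold, 3.06-fold, 2.13-fold, 1.72-fold, 1.68-fold and 1.37-fold. These were 6 of the 8 tested members, and 0 fell; of all tested genes 9.49% rose and 7.48% fell in that comparison at an adjusted p under 0.05 in edgeR's quasi-likelihood test, the threshold used throughout. After 4 h, 4 of 8 had risen against 0h (Cyr61, Actg1, Srf and Vcl) and 0 had fallen, where 7.35% of all genes rose and 5.56% fell. Between 2h and 4h, 0 rose and 5 of 8 fell (Cyr61, Ctgf, Amotl2, Lats2 and Rhob), where 5.78% of all genes rose and 6.36% fell. Scaled by library totals instead of TMM, Cyr61 alone was called at 4h against 0h, where 328 of 12742 genes rose and 180 fell. Without the clone in the model Amotl2 and Actg1 were not called at 2h against 0h, where 438 genes rose and 319 fell.

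After the MEK inhibitor, 2 of 8 members, Rhob and Amotl2, rose against 4h and 0 fell, where 4.5% of all genes rose and 5.1% fell. Against 0h, 5 of 8 were higher at rev (Cyr61, Ctgf, Amotl2, Rhob and Actg1) and 0 lower, where 5.51% of all genes were higher and 4.94% lower. Under scaling by library totals only Cyr61 was called there, where 106 of 12742 genes were higher and 343 lower. Without the clone in the model 0 members were called at 4h and at rev against 0h alike. That model called 362 genes higher and 184 lower at 4h, and 149 and 124 at rev. Against 2h, 0 were higher at rev and 2 of 8 were lower (Cyr61 and Lats2), where 0.769% of all genes were higher and 1.01% lower. With only the groups compared in the fit, Rhob was called higher at rev than at 2h (0.42, adjusted p = 0.0176, edgeR). That fit called 418 of 12211 genes higher and 413 lower. The median log2 change of the 8 tested members was 0.77 at 2h against 0h, 0.34 at 4h against 0h, -0.85 at 4h against 2h, 0.20 at rev against 4h, 0.66 at rev against 0h and -0.19 at rev against 2h. The median of all tested genes lay between -0.0068 and 0.0033 in each of them. These comparisons share groups, so their results are not independent of one another.

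The groups 2h and rev were both taken 2 h after the last compound was added, and a contrast of these with 0h and 4h, chosen with earlier results of these data known, called 6 of 8 members higher and 0 lower. Of all tested genes 9.73% were higher and 8.01% lower in it. The log2 difference was 1.38 for Cyr61, 1.14 for Rhob, 1.03 for Lats2, 0.86 for Amotl2, 0.74 for Ctgf and 0.40 for Actg1. It was 0.17 for Vcl and 0.04 for Srf, with 95% intervals of 0.025 to 0.32 and -0.14 to 0.23, and neither passed the test. Without replicate 1 of clone 4 at 4h the difference of Vcl was 0.22 and was called (adjusted p = 0.0426, edgeR). In clone 4 alone the difference of Actg1 was 0.03 (adjusted p = 0.775, edgeR), and in clone 8 alone 0.78 (adjusted p = 2.82e-07, edgeR). For Lats2 it was 1.75 in clone 4 alone and 0.50 in clone 8 alone, the latter with an edgeR adjusted p of 0.0814. Of the 6 called, Rhob and Amotl2 alone were also called at rev against 4h. The log2 change there was -0.13 for Cyr61, 0.01 for Actg1, 0.38 for Ctgf and 0.45 for Lats2. For each of the 6 the libraries at 2h and rev overlapped in level with those at 0h and 4h. The members' median in the contrast of 2h and rev with 0h and 4h was 0.80. The summed primitive endoderm markers, given above, were higher at 2h and rev than at 4h.

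**Figure D1:**
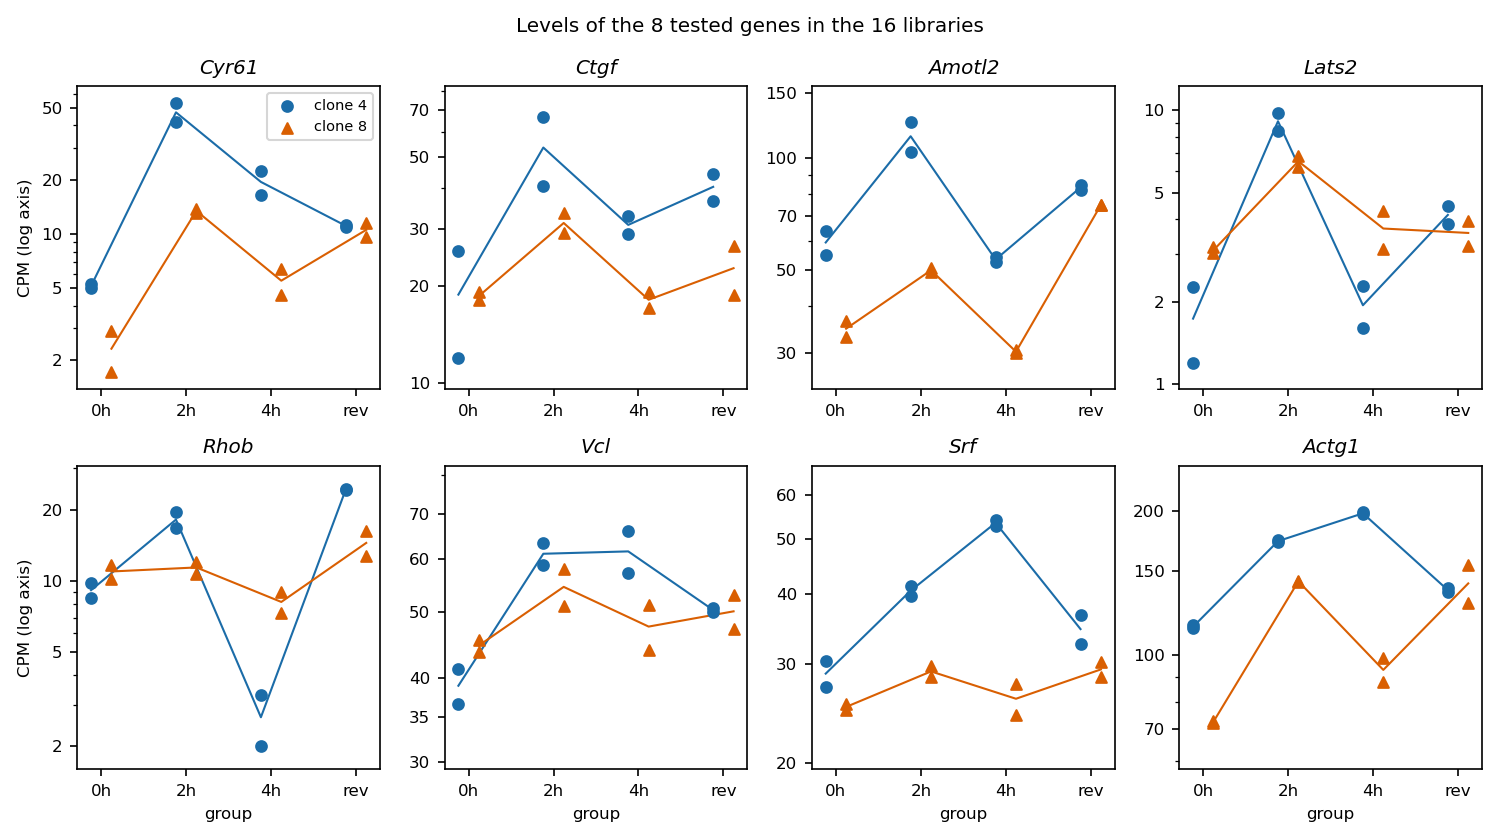
Level of each of the 8 tested genes (y axis, CPM on a log axis) in the 4 groups (x axis); each point is 1 library, blue circles are clone 4, orange triangles clone 8, and the lines join the mean of each clone. Cyr61, Ctgf, Amotl2 and Lats2 drop from 2h to 4h in both clones; 2h is the highest group of each in both clones except for Amotl2 in clone 8, which is highest at rev. Rhob drops to 2.00 and 3.30 CPM in clone 4 at 4h, and Srf rises to 52.9 and 54.1 CPM at 4h in clone 4 while the clone 8 libraries stay between 24.4 and 30.2 CPM in every group.

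Cyr61 encodes a secreted matricellular protein that cells deposit in the matrix and that integrins bind. The gene lies on chromosome 3 at 145646976 to 145649981 on the minus strand (GENCODE M21, GRCm38), and its exons are shared with no other annotated gene. At 0h its level was 4.99 and 5.31 CPM in clone 4 and 2.91 and 1.72 CPM in clone 8. At 2h it was 41.6 and 52.9 CPM in clone 4 and 13.1 and 13.7 CPM in clone 8, so the libraries at 2h lay above all those at 0h. At 4h the clone 4 libraries had 22.4 and 16.5 CPM and the clone 8 libraries 6.43 and 4.59 CPM, which in each clone lay between its 0h and 2h values. The clones met at rev, with 10.96 and 11.3 CPM in clone 4 and 11.5 and 9.59 CPM in clone 8.

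The rise of Cyr61 at 2h had a log2 change of 2.88 ± 0.29 (SE, adjusted p = 2.29e-06, edgeR). It fell from 2h to 4h by 1.23 ± 0.24 on the log2 scale (adjusted p = 0.00339, edgeR), and at 4h was still 1.65 ± 0.31 above 0h (adjusted p = 0.00179, edgeR). At rev its log2 difference from 0h was 1.53 ± 0.32 (adjusted p = 0.00539, edgeR). From 2h to rev its log2 change was -1.36 ± 0.25 (adjusted p = 0.00596, edgeR). In clone 4 alone that change was -2.08 and in clone 8 alone -0.39, the latter with an edgeR adjusted p of 0.269. Without replicate 1 or without replicate 2 of clone 4 at rev, the change from 2h to rev was -1.11 in both fits (adjusted p = 0.07 and 0.0554, edgeR).

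Ctgf, the closest relative of Cyr61 here and also a secreted matricellular protein, lies on chromosome 10 at 24595442 to 24598683 on the plus strand. Of its exon length 23.2% is shared with the opposite-strand model Gm15270, which had at most 15 counts in a library. At 0h Ctgf had 11.99 and 25.6 CPM in clone 4 and 19.1 and 18.1 CPM in clone 8. Induction for 2 h brought 40.7 and 66.3 CPM in clone 4 and 33.5 and 29.1 CPM in clone 8, all above every 0h library. At 4h the values were 32.8 and 29.0 CPM in clone 4 and 19.1 and 17.2 CPM in clone 8, which overlap with 0h. At rev they were 36.7 and 44.2 CPM in clone 4 and 18.8 and 26.6 CPM in clone 8.

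Ctgf rose at 2h by a log2 change of 1.09 ± 0.20 (SE, adjusted p = 0.00105, edgeR). From 2h to 4h it fell by 0.78 ± 0.19 on the log2 scale (adjusted p = 0.0136, edgeR), a call that was lost without replicate 2 of clone 4 at 2h (log2 change -0.61, adjusted p = 0.0638, edgeR). At rev its log2 difference from 0h was 0.69 ± 0.20 (adjusted p = 0.0335, edgeR). This difference was 1.06 in clone 4 alone (adjusted p = 0.00152, edgeR) and 0.35 in clone 8 alone (adjusted p = 0.144, edgeR). The call with both clones was lost without either clone 4 library at 0h, either clone 4 library at rev or replicate 2 of clone 8 at rev, with log2 differences of 0.45, 0.74, 0.72, 0.60 and 0.66 in that order. The smallest of these, 0.45, came without replicate 1 of clone 4 at 0h, the library at 11.99 CPM. Without the low-count filter the changes of Ctgf from 4h to rev (0.39) and from 2h to rev (-0.42) were called too (adjusted p = 0.0469 and 0.0428, edgeR).

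Amotl2, an angiomotin-family scaffold at cell junctions that binds YAP and LATS kinases, lies on chromosome 9 at 102716672 to 102733418 on the plus strand. Its level at 0h was 54.9 and 63.8 CPM in clone 4 and 36.5 and 33.1 CPM in clone 8. At 2h it was 104 and 125 CPM in clone 4 and 50.6 and 49.4 CPM in clone 8, so each clone rose while the ranges of the groups overlap because clone 8 was lower throughout. By 4h the values had returned to 54.3 and 52.6 CPM in clone 4 and 30.5 and 29.9 CPM in clone 8. At rev they were 82.3 and 84.7 CPM in clone 4 and 74.8 and 75.1 CPM in clone 8, all above the libraries at 0h and at 4h.

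The log2 change of Amotl2 was 0.75 ± 0.14 at 2h against 0h (SE, adjusted p = 0.0018, edgeR) and -0.93 ± 0.15 at 4h against 2h (adjusted p = 0.000707, edgeR). From 4h to rev it was 0.98 ± 0.15 (adjusted p = 0.000306, edgeR), and the level at rev was 0.80 ± 0.15 above 0h (adjusted p = 0.002, edgeR). Its change at 4h against 0h was -0.18 with a 95% interval of -0.47 to 0.11. In clone 8 the level at rev exceeded that at 2h, with a log2 change of 0.59 (adjusted p = 0.000936, edgeR in that clone alone). In clone 4 it was below that at 2h, with a log2 change of -0.45 (adjusted p = 0.0205, edgeR in that clone alone); the difference between the clones in this comparison was not tested.

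Lats2, the Hippo kinase that phosphorylates YAP, lies on chromosome 14 at 57689662 to 57758388 on the minus strand. It was the lowest of the tested members, with 6 to 97 counts in a library, so its values are less precise than those of the others. Of its exon length 42.4% is shared with the same-strand model Gm49361, which had 0 counts in all libraries. Its level at 0h was 1.20 and 2.27 CPM in clone 4 and 3.01 and 3.16 CPM in clone 8. At 2h it was 8.43 and 9.81 CPM in clone 4 and 6.23 and 6.80 CPM in clone 8, above every library of the other groups. At 4h it was 1.60 and 2.29 CPM in clone 4 and 3.12 and 4.29 CPM in clone 8, within or near the range at 0h. At rev it was 3.84 and 4.46 CPM in clone 4 and 3.94 and 3.198 CPM in clone 8, just above the highest library at 0h.

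Lats2 rose at 2h with a log2 change of 1.61 ± 0.26 (SE, adjusted p = 0.00046, edgeR) and fell from 2h to 4h by 1.43 ± 0.26 on the log2 scale (adjusted p = 0.00193, edgeR). Its change at 4h against 0h was 0.18, with a 95% interval of -0.42 to 0.79. At rev it was higher than at 0h in clone 4 alone (1.20, adjusted p = 0.0207, edgeR), where clone 8 alone gave 0.15 and both clones 0.63, neither of them called. The change from 2h to rev was -0.98 ± 0.25 (adjusted p = 0.0446, edgeR). This last call was lost in 14 of 27 alternative fits, 11 of them leaving out 1 library, among them each clone 4 library at 2h (log2 change -0.92 and -0.82) and each of the 4 libraries at rev (-0.99, -1.09, -0.97 and -0.86). The other 5 of these libraries were replicate 2 of clone 4 and both of clone 8 at 0h (-0.973, -0.976 and -0.985), replicate 2 of clone 8 at 2h (-1.06) and replicate 2 of clone 4 at 4h (-0.98). The size of the change thus moved little between these fits while the edgeR adjusted p reached from 0.000328 to 0.187 over the 27 alternatives.

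Rhob, a short-lived small GTPase that sits on endosomes and regulates actin, followed another course. Its single exon lies on chromosome 12 at 8497661 to 8500009 on the minus strand. The level at 0h was 9.79 and 8.49 CPM in clone 4 and 11.7 and 10.2 CPM in clone 8. At 2h it was 16.7 and 19.6 CPM in clone 4 and 12.1 and 10.7 CPM in clone 8, so only clone 4 lay clear of its values at 0h. At 4h it was 2.00 and 3.30 CPM in clone 4 and 8.95 and 7.35 CPM in clone 8. At rev it was 24.3 and 24.5 CPM in clone 4 and 12.7 and 16.2 CPM in clone 8, all above both 0h and 4h.

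From 4h to rev Rhob rose by a log2 change of 1.78 ± 0.31 (SE, adjusted p = 0.0011, edgeR), a call that held under all 27 alternatives. From 2h to 4h it fell by 1.32 ± 0.31 on the log2 scale (adjusted p = 0.0106, edgeR); the log2 change was -2.87 in clone 4 alone (adjusted p = 3.25e-09, edgeR) and -0.46 in clone 8 alone (adjusted p = 0.0947, edgeR). Its change at 2h against 0h was 0.50 ± 0.28 (adjusted p = 0.239, edgeR) and at 4h against 0h -0.81 ± 0.33 (adjusted p = 0.106, edgeR), and neither was called. Without the low-count filter both were, at 0.52 and -0.81 (adjusted p = 0.0166 and 0.00034, edgeR). In clone 4 alone both were called too, at 0.99 and -1.88 (adjusted p = 0.000485 and 1.85e-05, edgeR). In clone 8 alone they were 0.04 and -0.42 (adjusted p = 0.887 and 0.187, edgeR). The change at 4h was also called with only the groups compared in the fit (-0.91, adjusted p = 0.0227, edgeR) and without replicate 1 of clone 8 at 4h (-1.29, adjusted p = 0.015, edgeR). At rev against 0h it was higher by 0.96 ± 0.29 on the log2 scale (adjusted p = 0.0361, edgeR). That call was lost without either clone 4 library at 0h (0.93 and 0.85), either clone 4 library at rev (0.87 and 0.85) or replicate 2 of clone 8 at 0h (0.98), and in clone 8 alone (0.44). With these it was lost in 11 of 27 alternatives, DESeq2 among them.

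Vcl encodes vinculin, which ties integrin adhesions and cell junctions to actin. The gene lies on chromosome 14 at 20929398 to 21033676 on the plus strand and shares 25.5% of its exon length with the opposite-strand gene Ap3m1. Whether reads were counted by strand is not given in the sources used here, but Ap3m1 was not called at 2h (log2 change -0.05). At 0h Vcl had 36.6 and 41.2 CPM in clone 4 and 45.6 and 43.7 CPM in clone 8. At 2h it had 63.4 and 58.7 CPM in clone 4 and 58.0 and 51.1 CPM in clone 8, all above 0h. At 4h it had 66.0 and 57.1 CPM in clone 4 and 51.3 and 44.0 CPM in clone 8, the lowest of which falls within the range at 0h. At rev the libraries lay close together, at 50.03 and 50.7 CPM in clone 4 and 47.2 and 53.1 CPM in clone 8, again all above 0h.

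Vcl rose at 2h with a log2 change of 0.46 ± 0.11 (SE, adjusted p = 0.00602, edgeR) and at 4h stood 0.37 ± 0.11 above 0h (adjusted p = 0.0267, edgeR). In clone 8 alone the change at 2h was 0.28 (adjusted p = 0.0596, edgeR), and scaled by library totals it was 0.56 with an edgeR adjusted p of 0.215. The call at 4h was lost without any 1 of the clone 4 libraries of 0h (0.30 and 0.34) or 4h (0.27 and 0.36). In clone 8 alone the change at 4h was 0.10 (adjusted p = 0.644, edgeR), and in clone 4 alone 0.66 (adjusted p = 0.000313, edgeR). Its changes of -0.08 at 4h against 2h (95% interval -0.29 to 0.12) and 0.26 at rev against 0h (0.049 to 0.47) were not called.

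Srf encodes the transcription factor itself and is also known to be regulated by it. It lies on chromosome 17 at 46548329 to 46556175 on the minus strand. At 0h its level was 30.4 and 27.3 CPM in clone 4 and 25.4 and 24.9 CPM in clone 8. It was 39.7 and 41.3 CPM in clone 4 and 29.7 and 28.5 CPM in clone 8 at 2h, and 52.9 and 54.1 CPM in clone 4 and 27.6 and 24.4 CPM in clone 8 at 4h. The 4 highest libraries of the series were thus the clone 4 libraries at 4h and 2h. At rev the values were 36.7 and 32.5 CPM in clone 4 and 28.5 and 30.2 CPM in clone 8.

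With both clones in the fit, Srf was higher at 4h than at 0h by 0.49 ± 0.14 on the log2 scale (SE, adjusted p = 0.0218, edgeR), and its change of 0.34 ± 0.13 at 2h was not called (adjusted p = 0.0807, edgeR). The latter was called at a like size without replicate 2 of clone 8 at 4h (0.34, adjusted p = 0.0479, edgeR), without the low-count filter (0.37, adjusted p = 0.0386, edgeR) and with only the groups compared in the fit (0.33, adjusted p = 0.0222, edgeR). It was 0.49 in clone 4 alone (adjusted p = 0.00822, edgeR) and 0.21 in clone 8 alone (adjusted p = 0.181, edgeR). The call at 4h was lost without any 1 of the clone 4 libraries of 0h (0.46 and 0.40) or of 4h (0.39 and 0.40). In clone 4 alone the change at 4h was 0.89 (adjusted p = 1.11e-05, edgeR), and in clone 8 alone 0.06 (adjusted p = 0.823, edgeR). Its change from 4h to rev was -0.26, with a 95% interval of -0.52 to 0.0011.

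Actg1 encodes gamma-actin, the nonmuscle cytoplasmic actin, and lies on chromosome 11 at 120345690 to 120348542 on the minus strand. Its processed copy Actg-ps1 had at most 4 counts in a library against 503 to 2029 for Actg1, although counting could split reads between such copies. At 0h Actg1 stood at 115 and 114 CPM in clone 4 and at 72.9 and 72.3 CPM in clone 8. At 2h the libraries of clone 4 had 174 and 172 CPM and those of clone 8 143 and 142 CPM, all above 0h. At 4h clone 4 had 197 and 199 CPM, its highest values, while clone 8 had dropped to 87.9 and 98.5 CPM. At rev the clones met again, at 136 and 138 CPM in clone 4 and 154 and 128 CPM in clone 8.

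Actg1 rose at 2h with a log2 change of 0.79 ± 0.15 (SE, adjusted p = 0.00188, edgeR), and was above 0h by 0.60 ± 0.15 at 4h (adjusted p = 0.0133, edgeR) and by 0.61 ± 0.15 at rev (adjusted p = 0.016, edgeR). The difference at rev was 0.26 in clone 4 alone (adjusted p = 0.0921, edgeR) and 0.94 in clone 8 alone (adjusted p = 7.21e-06, edgeR). The call at 4h was lost without either clone 4 library of 4h (0.49 and 0.50), and the call at rev without replicate 1 of clone 8 at rev (0.47, adjusted p = 0.0512, edgeR), the library with the fewest counts outside the abundant features. From 2h to 4h it fell in clone 8 alone by 0.62 on the log2 scale (adjusted p = 0.000354, edgeR). In clone 4 alone the change was 0.19 (adjusted p = 0.166, edgeR).

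Tagln, an actin-bundling smooth-muscle protein also called SM22, and Myl9, a myosin regulatory light chain, are classical SRF targets of contractile cells. Tagln (chromosome 9, 45929619 to 45936058, minus strand) had 0 to 4 counts in any library, 21 in all, and 0 in 3 libraries. Its exons share 67.9% of their length with Pcsk7 and Gm48529 on the opposite strand, so even these reads are uncertain. Myl9 (chromosome 2, 156775420 to 156781658, plus strand) had 1 to 11 counts, 80 in all. Its level was 1.33 and 1.52 CPM in clone 4 at 4h and between 0.20 and 1.28 CPM in the other 14 libraries. Changes of either gene were not detectable at this depth.

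Per kb of exon, which allows genes to be set side by side, Actg1 had the highest mean level at 0h (35.2 CPM per kb). Srf (9.33), Amotl2 (7.49), Ctgf (6.54), Vcl (5.10) and Rhob (4.28) followed, and then Cyr61 (1.85) and Lats2 (0.346). Tagln (0.0813) and Myl9 (0.416) were at the level of single counts. At 2h Cyr61 stood at 15.04 CPM per kb, above Ctgf (14.8), Amotl2 (13.1) and Srf (12.03), in means over both clones. The SD of Cyr61 over the 4 libraries was 9.94, which holds the gap between its clones, with means of 47.3 CPM in clone 4 and 13.4 CPM in clone 8. The order of these neighbours within a clone was not tested.

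**Figure D2:**
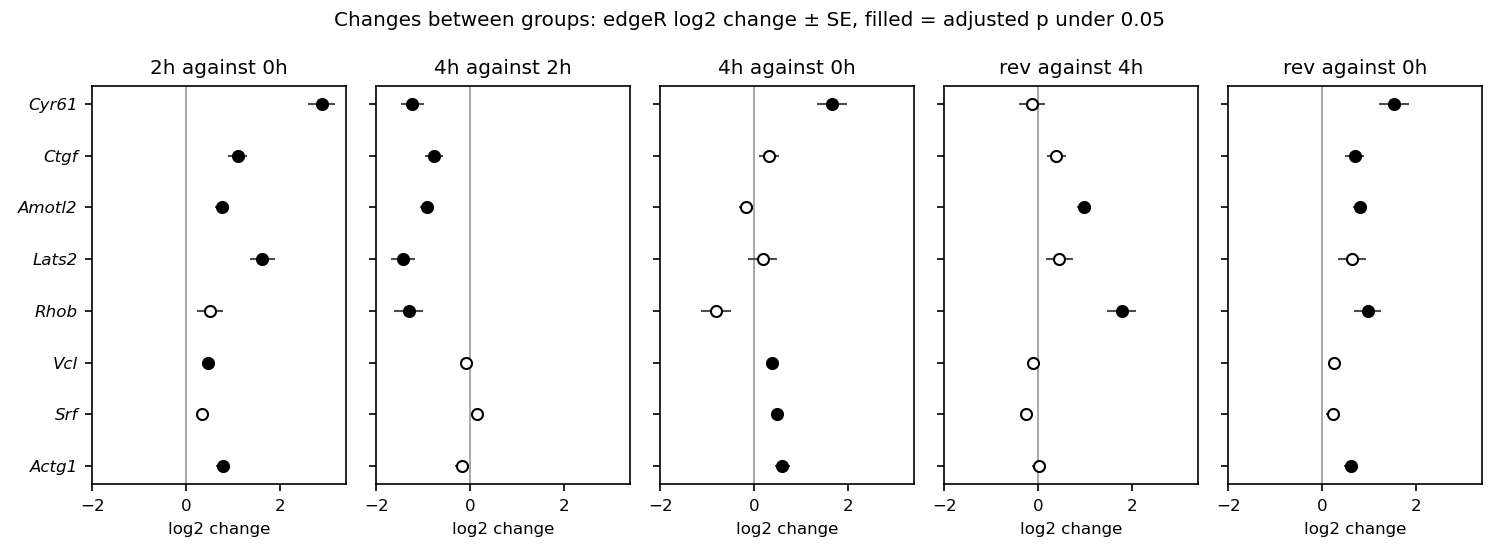
Log2 change ± SE (x axis) of each tested gene (y axis) in 5 comparisons between groups, 4 libraries a group, with filled points for an edgeR adjusted p under 0.05. Cyr61, Ctgf, Amotl2 and Lats2 have filled points to the right at 2h against 0h and to the left at 4h against 2h, and Rhob has its largest change, 1.78, at rev against 4h.

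The clones differed in how several members changed, and each difference is given as clone 8 less clone 4. At 2h against 0h, 1 of 8 members differed (Rhob), where 7.94% of all tested genes did. For 4h against 0h, 3 of 8 differed (Rhob, Srf and Vcl), where 5.72% of all genes did. At rev against 4h, 5 of 8 differed (Cyr61, Amotl2, Rhob, Srf and Actg1), where 13.2% of all genes did.

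In clone 4 Rhob swung widely, with log2 changes of 0.99 at 2h against 0h, -1.88 at 4h against 0h and 3.31 at rev against 4h. In clone 8 the corresponding changes were 0.04, -0.42 and 0.86. The difference between the clones was -0.96 ± 0.25 (SE, adjusted p = 0.0128, edgeR) in the first, 1.46 ± 0.35 (adjusted p = 0.00678, edgeR) in the second and -2.44 ± 0.32 (adjusted p = 1.88e-06, edgeR) in the third of these. The first was lost without replicate 2 of clone 4 or replicate 1 of clone 8 at 0h (-0.83 and -0.82), and without replicate 2 of clone 4 or of clone 8 at 2h (-0.84 and -0.87). The second was lost without replicate 1 of clone 4 at 4h (1.04, adjusted p = 0.297, edgeR) and without replicate 1 of clone 8 at 4h (1.30, adjusted p = 0.0585, edgeR). The third held under all 24 alternatives.

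After the MEK inhibitor the changes of Cyr61, Actg1 and Srf had opposite signs in the clones. From 4h to rev the log2 change of Cyr61 was -0.84 in clone 4 and 0.85 in clone 8, a difference of 1.70 ± 0.29 (SE, adjusted p = 0.000123, edgeR). For Actg1 it was -0.52 in clone 4 and 0.59 in clone 8, a difference of 1.12 ± 0.14 (adjusted p = 1.40e-06, edgeR). For Srf it was -0.62 in clone 4 and 0.17 in clone 8, a difference of 0.80 ± 0.17 (adjusted p = 0.00115, edgeR), although the clone 8 change alone did not pass the test (adjusted p = 0.47, edgeR). Amotl2 rose in both, by 0.65 in clone 4 and 1.31 in clone 8, a difference of 0.67 ± 0.16 (adjusted p = 0.00416, edgeR).

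These differences between the clones depend on the scaling. Under scaling by library totals the median gene itself differed between the clones by -0.67 at rev against 4h, and the differences of Cyr61 (1.03), Actg1 (0.43), Srf (0.15) and Amotl2 (0.0015) were no longer called, while that of Lats2 (-1.86, adjusted p = 0.0199, edgeR) was called in addition. Relative to that median they were 1.70, 1.10, 0.81 and 0.67, and -1.20 for Lats2. The differences of Rhob at 2h against 0h (-0.37) and of Srf (-0.52) and Vcl (-0.24) at 4h against 0h were not called under that scaling either. At rev against 4h the fit with library totals called the change of 119 genes as higher in clone 8 and of 1776 as lower, against 803 and 878 with TMM.

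Between 0h and 4h the log2 change of Srf in clone 8 was below that in clone 4 by a difference of -0.84 ± 0.17 (SE, adjusted p = 0.00135, edgeR). For Vcl the difference was -0.57 ± 0.17 (adjusted p = 0.0344, edgeR). The Vcl difference was lost without replicate 1 of clone 4, replicate 1 of clone 8 or replicate 2 of clone 8 at 0h (-0.49, -0.52 and -0.59), and without replicate 1 of clone 4 or replicate 2 of clone 8 at 4h (-0.45 and -0.47). With these it was lost in 9 of 24 alternatives, among them DESeq2 and no low-count filter. Ctgf, for which no difference was called, had log2 changes at 4h of 0.67 in clone 4 and -0.03 in clone 8. Without replicate 2 of clone 4 at 0h the Ctgf differences between the clones were -1.39 at 2h and -1.40 at 4h, and both were called (adjusted p = 0.00832 and 0.00968, edgeR). Without replicate 1 of clone 4 at 2h the differences at 2h of Ctgf (-1.02) and Amotl2 (-0.55) were called. Without replicate 1 of clone 8 at rev the differences of Actg1 at 2h (0.41) and 4h (-0.43) were called, the latter also without replicate 2 of clone 8 at rev (-0.43).

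**Figure D3:**
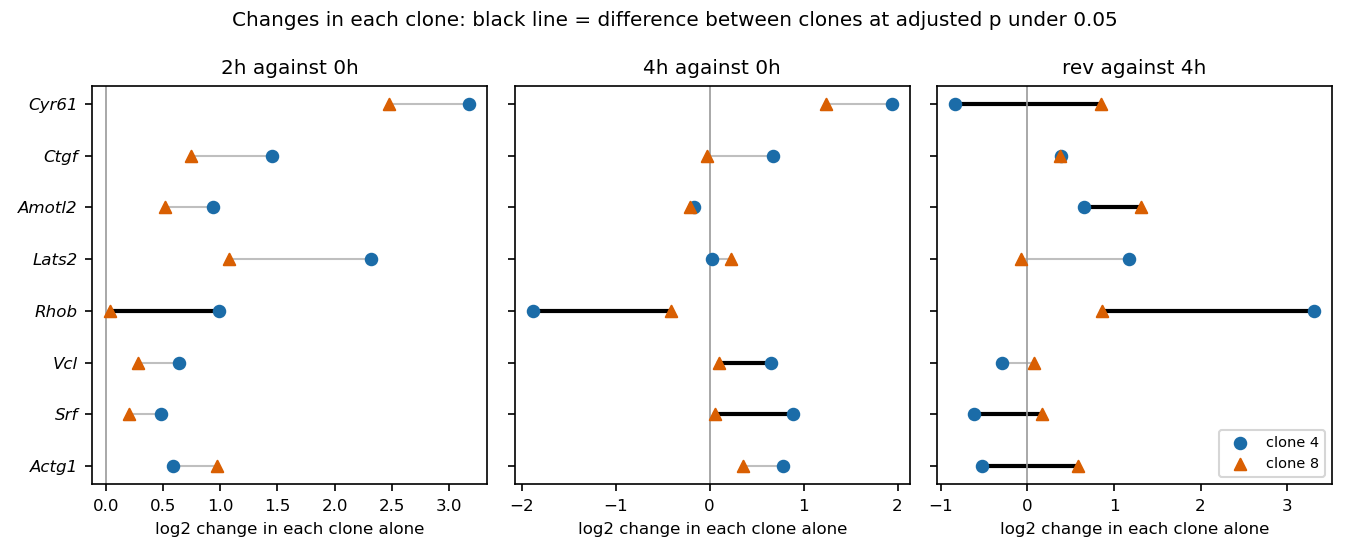
Log2 change of each tested gene (y axis) in clone 4 (blue circles) and clone 8 (orange triangles), each clone fitted alone, for 3 comparisons with their own x scales; a black line joins the clones where their difference had an edgeR adjusted p under 0.05. At rev against 4h, 5 of the 8 lines are black, and among these 5 genes the clones lie on opposite sides of 0 for Cyr61, Srf and Actg1.

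The likeness of the patterns was described by Pearson's r of log2 CPM over the 16 libraries after the mean of each clone was taken off. The libraries share the 4 groups, so these values describe the courses and are given with no test. Cyr61 was most like Actg1 (0.85) and Vcl (0.82) among the members, Ctgf most like Lats2 (0.81), and Vcl most like Cyr61 and Srf (both 0.82). Rhob stood apart, with -0.48 for Srf, -0.18 for Actg1 and -0.14 for Vcl, and its highest value was 0.65 for Amotl2. Lats2 and Srf had an r of 0.08.

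**Figure D4:**
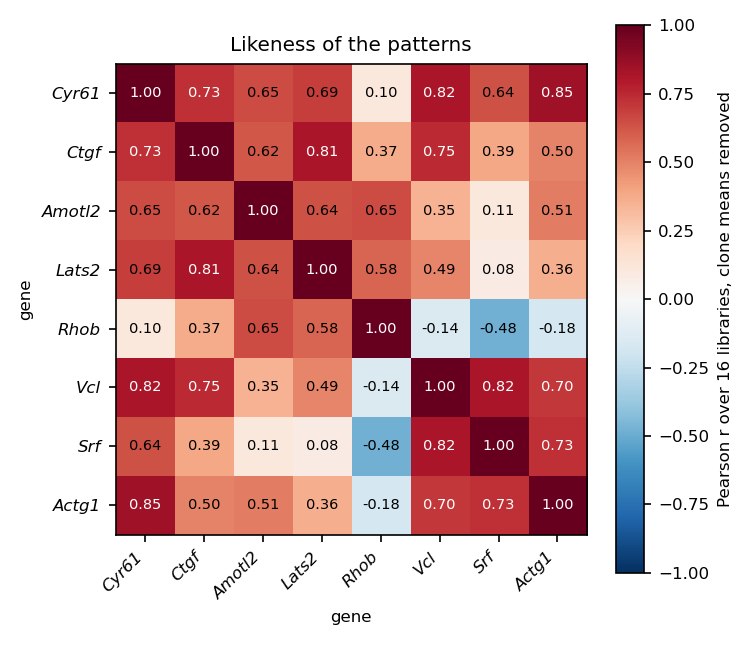
Pearson's r between the patterns of the 8 tested genes over 16 libraries, clone means removed, on a colour scale from -1 (blue) to 1 (red), with both axes listing the genes. The row of Rhob holds the negative values, the lowest of them -0.48 for Srf.

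Patterns were compared with those of 7832 tested genes with a mean of at least 50 counts. Brd2 (r = 0.93) and Ing3 (0.90) were among those most like Cyr61, and Mcm4 (0.92), Avl9 (0.91) and Fam13b (0.91) were most like Ctgf. For Amotl2 the closest were Camk2g (0.91), Arl2bp (0.90) and Nktr (0.88), and for Lats2 Mier3, Sec62 and Pank3 (all 0.96). Ulk1 (0.97), Hs6st1 (0.97) and Zcchc14 (0.96) were most like Rhob. Vcl was followed most closely by Jak1 (0.91), Dusp5 (0.90), an ERK phosphatase, and Itgb1 (0.89), the integrin chain to whose adhesions vinculin is recruited. Tlnrd1 (0.96), Csrnp1 (0.95) and Plekhf1 (0.94) were most like Srf, and Dppa2 (0.93), Porcn (0.90) and Arpc2 (0.89), a subunit of the actin-nucleating Arp2/3 complex, most like Actg1.

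Other targets of YAP and TEAD were listed without the members. Counts of this list and those below stand beside the shares of all tested genes called higher and lower. These shares were 9.49% and 7.48% at 2h against 0h, 7.35% and 5.56% at 4h against 0h, and 5.78% and 6.36% at 4h against 2h. At rev they were 4.5% and 5.1% against 4h, and 5.51% and 4.94% against 0h. At 2h against 0h, 3 of 13 tested genes rose and 0 fell, with a median of 0.14: Fjx1 (log2 change 1.76), Gadd45a (0.77), a stress-response gene, and Ajuba (0.53), a junctional LIM protein. After 4 h, 4 of 13 had risen against 0h and 0 fell, among them Fjx1 (2.23), Gadd45a (0.86) and Igfbp3 (0.72). From 2h to 4h, 0 rose and 1 fell (Crim1, -0.98), and from 4h to rev 2 rose and 3 fell, among them Fjx1 (-1.33), Gadd45a (-0.77) and Arhgef17 (0.41). At rev against 0h, 2 were higher (Igfbp3, 0.64, and Ajuba, 0.36) and the receptor kinase gene Axl was lower (-1.31). Ankrd1, a widely used YAP target, had at most 4 counts in a library; it was named after its values were seen.

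Of 18 tested core Hippo pathway genes, 4 rose and 2 fell at 2h (9.49% and 7.48% of all genes), with a median of 0.15. Mob1b (0.87), the LATS activator, Lats1 (0.78) and Tead1 (0.57) were the largest. The change of Lats1 was 1.32 in clone 4 and 0.19 in clone 8 (adjusted p = 0.000204, edgeR interaction). No difference between the clones was called for Mob1b and Tead1 there. Between 2h and 4h, 1 rose and 4 fell, with Tead4 at 0.96, Lats1 at -0.78 and Wwtr1, which encodes TAZ, at -0.51. Compared with 0h, 3 were higher and 2 lower at 4h, led by Tead4 (1.09) and Tead3 (0.79), with Amotl1 at -0.42. At rev against 4h, 0 rose and 1 fell (Tead4, -0.89), and at rev against 0h, 2 rose and 2 fell, with Mob1b at 0.64, Tead1 at 0.59 and Amotl1 at -0.52. Yap1 itself, whose values were looked at first, had group means between 89.2 and 95.6 CPM.

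The immediate-early genes that SRF drives with ternary complex factors had a median log2 change of 3.19 at 2h, beside 0.77 for the 8 tested members. All 6 tested rose at 2h, among them Egr1 (log2 change 7.30) and Fos (4.58). Mean levels of Egr1 were 2.10 CPM at 0h, 345 CPM at 2h, 145 CPM at 4h and 4.48 CPM at rev. Between 2h and 4h, 0 rose and 4 fell (Fos, -3.04, and Egr1, -1.65). From 4h to rev, 0 rose and 3 fell, with Egr1 at -4.82 and Junb at -0.94. Egr3, also among the largest, had a mean of 0.0259 CPM at 0h, so no fold is given for it against 0h. Its means were 7.25 CPM at 2h, 9.73 CPM at 4h and 0.766 CPM at rev. Egr1 and Junb changed unequally in the clones. At 4h against 0h Egr1 had 6.58 in clone 4 and 4.16 in clone 8 (adjusted p = 0.00152, edgeR interaction). Junb had 2.16 and 0.98 there (adjusted p = 0.012, edgeR interaction). At rev against 4h Egr1 had -5.47 and -3.35 (adjusted p = 0.000619, edgeR interaction). Junb had -1.92 and 0.22 there (adjusted p = 8.6e-07, edgeR interaction). Fos, Ier2, Mcl1 and Egr3 were not called as differing in either comparison.

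The cytoskeletal targets of SRF and MRTF were again listed without the members. At 2h, 1 of 19 tested genes rose and 0 fell (9.49% and 7.48% of all genes), with a median of 0.13. The gene that rose was Zyx (0.88), which encodes the adhesion protein zyxin. Its change was 1.84 in clone 4 and 0.15 in clone 8 (adjusted p = 0.00536, edgeR interaction). At 4h against 0h, 3 rose and 0 fell, with a median of 0.28: Zyx (0.97), Pdlim7 (0.80) and Actb (0.44), which encodes beta-actin. Between 2h and 4h 0 of the 19 were called in either direction by edgeR, and 2 had an unadjusted p under 0.05. At rev, 1 fell against 4h (Actb, -0.41) and 1 was higher than at 0h (Tagln2, 0.57). Of the 5 tested genes of the SRF cofactors, Elk4, a ternary complex factor, rose at 2h (0.68) and at 4h (0.55), and the MRTF genes Mkl1 and Mkl2 were not called.

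Of 14 genes for small GTPases and actin regulators, 5 rose and 2 fell at 2h (9.49% and 7.48% of all genes), median 0.15. Rnd3 (-0.54), which encodes an atypical small GTPase that opposes RhoA signalling, Rac1 (0.48) and the kinase gene Rock1 (0.42) were the largest. At 4h against 0h, 3 rose and 1 fell, with Rnd3 at -0.77, Rac1 at 0.57 and Rock2 at 0.55. Pfn1, which encodes the actin-monomer binder profilin, rose from 2h to 4h (0.43) and Rock1 fell (-0.43). From 4h to rev Rnd3 rose (0.56) and Pfn1 fell (-0.41). Among 9 focal adhesion genes, Itgb1 rose at 2h (0.63), and at 4h against 0h 3 rose (Fermt2, 0.59; Itgb1, 0.56; Pxn, 0.45) and 1 fell. Pxn rose from 2h to 4h (0.49), and from 4h to rev Parva rose (0.81).

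**Figure D5:**
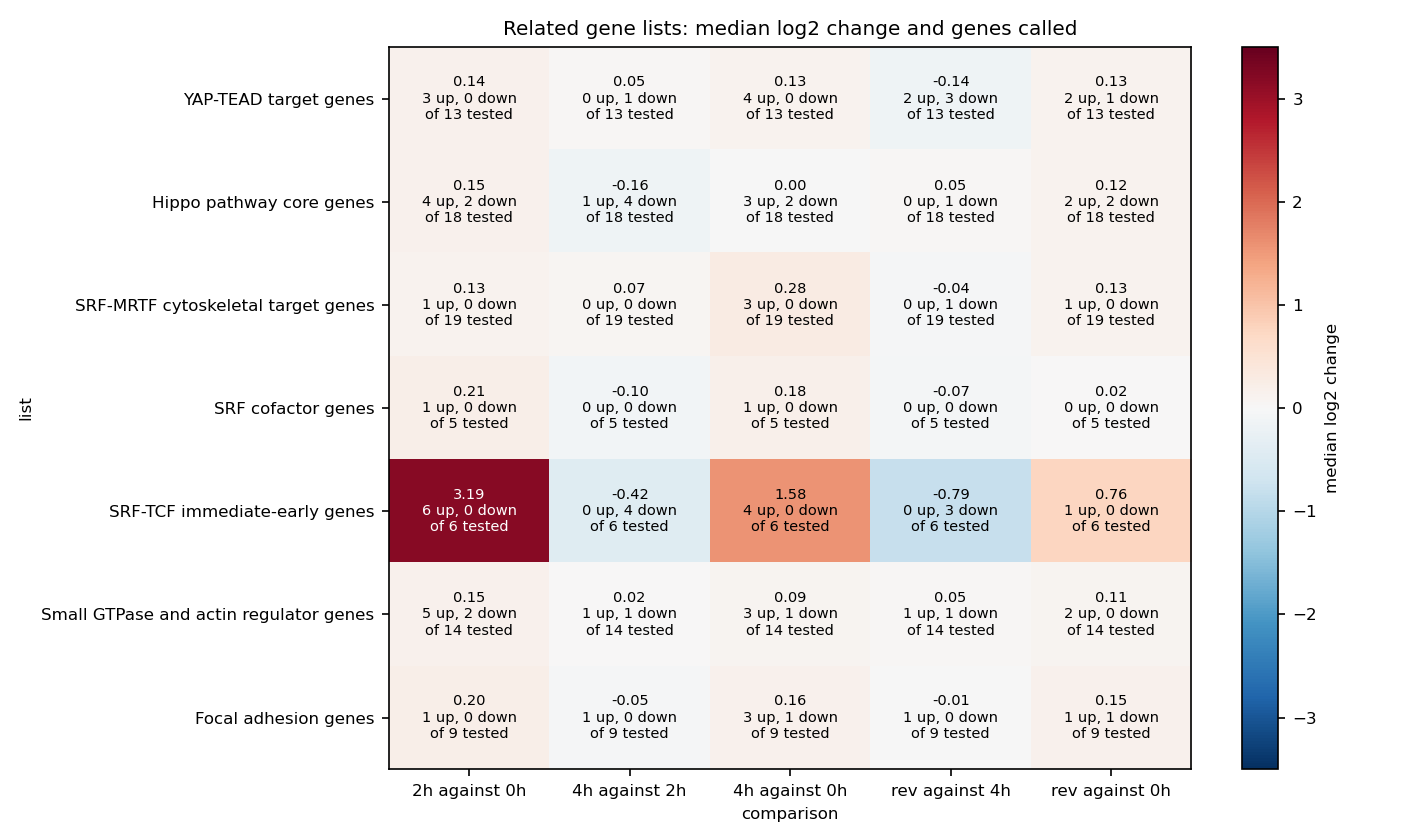
Median log2 change (colour and first number in each cell) and the number of genes called higher and lower by edgeR, of those tested, for 7 related lists (rows) in 5 comparisons (columns). The immediate-early list stands at 3.19 at 2h against 0h, and the other 6 lists have medians between -0.16 and 0.28 throughout.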

How the data were processed

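The authors deposited 1 table of raw whole-number counts per gene for the 16 RNA-seq libraries, not normalized. Per the submitters' processing notes, bcl2fastq 2.19.1, STAR 2.5.3a and the build mm10 were used; the counting program, annotation and strand setting are not given in the sources used here. Groups, clones and replicate numbers came from the sample titles. Positions came from GENCODE M21 (GRCm38), to which 52489 of 52636 gene identifiers matched, and promoters from RefSeq (GRCm38.p6).

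From the counts, filterByExpr in edgeR 4.0.16 (R 4.3.3) kept 12742 genes with the groups as its design, at a minimum count of 10 and a minimum total of 15. Scaling was by TMM, and the quasi-likelihood test was fitted to all 16 libraries with the group and the clone in the model. P-values were adjusted by Benjamini and Hochberg's method over all 12742 genes, with a call under 0.05. Each SE is the size of the change over the square root of its F statistic. Differences between clones were interaction terms, and each clone was also fitted alone. For log2 CPM 2 counts were added as prior. The members, the lists and the contrast of 2h and rev with 0h and 4h were chosen with earlier results of these data known; the 10 members are named whatever their values, and of each list at most the 3 called genes with the largest change in a comparison. Libraries of 1 clone and group differed by more than counting allows (chi-square over its degrees of freedom 1.32 to 4.49), so each was kept as a sample. The fits were tested on simulated data. Alternatives were library totals, DESeq2 1.42.0, other filters, models and thresholds, single clones, and leaving out each library. Of the genes most like Cyr61 in pattern, 1 is not reported here.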

Additional observations from a re-analysis of the deposited data

Results flagged for a closer look

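The changes of 6 members differed between the clones by a test of the difference itself (edgeR interaction term, clone 8 change minus clone 4 change on the log2 scale). For Rhob the difference was -0.956 at 2h against 0h, 1.458 at 4h against 0h and -2.445 at rev against 4h. At 4h against 0h it was -0.5695 for Vcl and -0.8395 for Srf. At rev against 4h it was 1.702 for Cyr61, 0.6699 for Amotl2, 0.8039 for Srf and 1.124 for Actg1. Of all tested genes 7.94% differed at 2h against 0h, 5.72% at 4h against 0h and 13.2% at rev against 4h. Under scaling by library totals only the Rhob differences at 4h against 0h and at rev against 4h were still called. The Rhob difference at 2h against 0h was lost in 7 of 24 alternatives, and that of Vcl in 9 of 24. The clones differ in no treatment that the labels give, and what else sets them apart was not tested.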

How the results depend on the processing

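Counts below are of the 8 tested members called. No log2 change or clone difference that was called changed sign under any alternative. Removing the features above 1% of all counts, and a minimum count of 30, left each count as it was. With library totals in place of TMM, 1 member was called at 4h against 0h and 1 at rev against 0h, and the clones differed for 0 members at 2h against 0h, 1 at 4h against 0h and 2 at rev against 4h; the median of all genes then moved to 0.107 at 2h against 0h, -0.142 at 4h against 2h, -0.199 at rev against 4h, -0.236 at rev against 0h and -0.348 at rev against 2h, and between the clones to 0.563, 0.348 and -0.667. Over all genes the library totals called the change of 450 as higher and 26 as lower in clone 8 at 2h against 0h. These numbers were 54 and 99 at 4h against 0h, and 119 and 1776 at rev against 4h. DESeq2 gave 0 clone differences at 2h against 0h, where it called 203 genes higher and 322 lower. No low-count filter gave 2 there, beside 411 and 536 of 31994 genes. The Vcl clone difference at 4h against 0h was lost in both of these fits, and Rhob at rev against 0h with DESeq2. At 2h against 0h Amotl2 and Actg1 lost their calls without the clone in the model, and Vcl with library totals and in clone 8 alone. Without the clone in the model 0 members were called at 4h against 0h and 2 at 4h against 2h. That model called 1 at rev against 4h, 0 at rev against 0h and 0 at rev against 2h. Over all genes it called 134 higher and 132 lower at 4h against 2h, and 95 and 156 at rev against 4h. It called 149 and 124 at rev against 0h, and 12 and 29 at rev against 2h. At an adjusted p under 0.01 the counts were 1 at 4h against 0h, 3 at 4h against 2h, 2 at rev against 0h, 1 at rev against 2h and 0 clone differences at 2h against 0h. The genes called higher and lower at that threshold were 454 and 240 at 4h against 0h, and 223 and 234 at 4h against 2h. They were 262 and 188 at rev against 0h, and 26 and 45 at rev against 2h. For the clone difference at 2h against 0h they were 141 and 275. In clone 4 alone 6 were called at rev against 4h. In clone 8 alone there were 2 at 4h against 0h, 4 at rev against 4h and 3 at rev against 0h. That fit called 433 of 12831 genes higher and 391 lower at rev against 4h, and 676 and 594 at rev against 0h. The calls over all genes shifted too. At rev against 4h clone 4 alone called 1636 of 12759 genes higher and 1506 lower, against 574 and 650 of 12742 in the main fit. At 4h against 0h library totals called 328 and 180 genes and the model without the clone 362 and 184. The main fit called 936 and 709 there, and clone 8 alone 449 and 357. The cause of these shifts was not tested.

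Leaving out 1 library at a time gave 1 to 5 members at 4h against 0h, 3 to 5 at rev against 0h, 0 to 2 at rev against 2h, 0 to 3 clone differences at 2h against 0h and 1 to 4 at 4h against 0h. The count at 2h against 0h stayed at 6 or 7. The calls over all genes moved too. At 4h against 0h 565 to 1031 genes were higher and 398 to 809 lower. At rev they were 370 to 832 and 298 to 735 against 0h, and 37 to 145 and 43 to 167 against 2h. Clone differences were 169 to 459 higher and 255 to 758 lower at 2h against 0h, and 64 to 293 and 217 to 515 at 4h against 0h. The replicate numbers do not pair the libraries: deviations correlated at 0.375 within and 0.384 between numbers of a clone, and 6 of 16 libraries correlated best with their own number. A replicate block of clone and number left 1 member called at rev against 2h, losing Lats2, and 4 at rev against 0h, losing Rhob, and changed no other call. With it 67 genes were called higher and 91 lower at rev against 2h, and 551 and 476 at rev against 0h. Depth limits Lats2, Tagln and Myl9 most.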

Other observations

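Several related genes, chosen here after their values were seen, also changed unequally in the clones. At 4h against 0h the log2 change of Zyx was 2.10 in clone 4 and -0.00077 in clone 8 (-2.12 between them, adjusted p = 0.000775 by edgeR), and that of Pdlim7 was 1.42 and 0.05 (-1.38 between them, adjusted p = 0.000469 by edgeR). Both encode LIM-domain proteins that bind the actin cytoskeleton. For Actb it was 0.72 and 0.13 (-0.60 between them, adjusted p = 0.0223 by edgeR). For Tead4, a DNA-binding partner of YAP, it was 1.91 and 0.47 (-1.46 between them, adjusted p = 1.89e-06 by edgeR).

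At rev against 4h the change of Itga5, the fibronectin receptor chain, was -0.97 in clone 4 and 0.33 in clone 8 (1.32 between them, adjusted p = 1.39e-06 by edgeR). Fjx1 had -2.77 in clone 4 and -0.02 in clone 8 (2.76 between them, adjusted p = 9.41e-06 by edgeR). Lats1, the partner kinase of Lats2, had 0.97 in clone 4 and -0.11 in clone 8 (-1.06 between them, adjusted p = 0.000758 by edgeR).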
